A study of Homo sapiens with 6 samples.

Results

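Kinin receptors and the enzymes and receptors of the prostaglandin E2 (PGE2) pathway were followed in BT-549 cells after silencing of the lncRNA NEAT1. The 9 genes are BDKRB1, BDKRB2, PTGS1, PTGS2, PTGES, PTGER2, PTGER4, PLA2G4A and HPGD. They were taken by symbol from a table of 25545 genes, all 9 were found, and 5 of them had a mean of at least 1 TPM (a transcript level scaled by length and by library size, with the same total in every library), the minimum for the comparison. The genes were chosen by a rule written with the TPM values of NEAT1siRNA and CsiRNA libraries in view, so their levels, differences and calls are a description, and no p-value is given for them.

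BT-549 is an established human triple-negative breast cancer (TNBC) line. The cells were transfected for 48 h with a control siRNA (CsiRNA) or with an siRNA against NEAT1 (NEAT1siRNA), and 3 RNA-seq libraries were made for each. The titles of the libraries carry a tet- prefix, whereas the described treatment was transient transfection with siRNA, and no other allele, drug or induction is listed for either group. The comparison is therefore of 1 siRNA with 1 control siRNA in 1 cell line. Triplicate cultures are stated without saying whether they were independent, so the spread between libraries may be partly technical. In bulk RNA, fewer cells expressing a gene and less RNA per cell cannot be told apart.

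Kinins are short peptides released from kininogen that act on a pair of G protein-coupled receptors. The B2 receptor is present in many resting tissues and binds bradykinin itself, whereas the B1 receptor is typically induced by cytokines and injury and binds kinins that have lost their C-terminal arginine. Signalling through either receptor can activate phospholipases, and the cytosolic phospholipase A2 encoded by PLA2G4A frees arachidonic acid from membranes. The cyclooxygenases PTGS1 (COX-1) and PTGS2 (COX-2) convert arachidonic acid to PGH2, PTGES converts PGH2 to PGE2, the EP2 and EP4 receptors (PTGER2 and PTGER4) raise cyclic AMP in response to PGE2, and HPGD oxidises PGE2 to an inactive form. In tumours, the COX-2 and PGE2 axis is known for its links to inflammation, migration and immune evasion.

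The kinin receptor genes lie side by side on chromosome 14, and both are transcribed from the plus strand. On the GENCODE 44 annotation of GRCh38, BDKRB2 spans chr14:96204679-96244166 and BDKRB1 spans chr14:96256210-96268967. They are 12043 bases apart with 0 protein-coding genes between them. Both principal transcripts have 3 exons. Since BDKRB1 and not its neighbour was past the threshold of the comparison, the 250 bases before each RefSeq start site are shown (GRCh38.p14, plus strand, 5′ to 3′), with the longest run of bases that the windows share in capitals.
BDKRB1 (chr14:96255960-96256209): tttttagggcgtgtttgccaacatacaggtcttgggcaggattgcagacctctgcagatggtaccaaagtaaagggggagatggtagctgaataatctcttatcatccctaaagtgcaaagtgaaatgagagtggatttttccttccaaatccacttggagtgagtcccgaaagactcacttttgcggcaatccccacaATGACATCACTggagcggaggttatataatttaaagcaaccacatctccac
BDKRB2 (chr14:96204589-96204838): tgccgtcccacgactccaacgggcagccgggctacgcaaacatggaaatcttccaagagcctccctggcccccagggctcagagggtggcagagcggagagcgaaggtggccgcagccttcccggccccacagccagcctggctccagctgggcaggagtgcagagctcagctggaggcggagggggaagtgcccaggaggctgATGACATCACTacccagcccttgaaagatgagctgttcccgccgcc

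The shared run, ATGACATCACT, is 11 bases long and lies at positions -51 to -41 before the BDKRB1 start and at positions -46 to -36 before the BDKRB2 start. It was searched for after the values were seen, and on either strand 18 of 35116 RefSeq promoter windows hold it, or 0.0513%. The run was picked because both windows hold it, so both are among the 18 by construction. How often a pair of windows shares a run of this length was not counted, so the share does not show that the run is unusual. The windows differ in base composition, with 44.8% G and C before BDKRB1 and 66.4% before BDKRB2. As exact words, neither window holds TATAAA, the E-box CACGTG, the cyclic AMP element TGACGTCA or the AP-1 motif TGANTCA on either strand. Near forms of these words were not counted. The BDKRB1 window holds a near form of TATAAA between the shared run and the start site. The shared run itself holds a near form of TGACGTCA. The search therefore cannot show that elements of these kinds are missing from either window. Over all windows of 250 bases, TATAAA is in 10.7%, CACGTG in 6.34%, TGACGTCA in 1.65% and TGANTCA in 6.57%. A loose NF-κB pattern (GGG and CC with 3 to 5 letters between) is in both windows, but it is also in 72.5% of all windows and so separates few promoters. Of the other members, TATAAA was found before PTGS2 at positions -32 to -27, and before PTGS1 only in the antisense orientation.

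The targeted RNA was lower in every NEAT1siRNA library. NEAT1, the lncRNA whose long isoform NEAT1_2 scaffolds paraspeckles, was at 13.4, 7.68 and 10.8 TPM in the CsiRNA libraries and at 4.36, 2.96 and 2.73 TPM in the NEAT1siRNA libraries. These values are per gene, so NEAT1_2 and the short polyadenylated isoform NEAT1_1 were not told apart. The groups did not overlap, and the mean fell to 31.5% of the control mean (log2 fold change -1.41, SE 0.14, adjusted p = 1.21e-07 by limma over all genes tested). Recovered reads ran from 17246137 to 20343374 per CsiRNA library and from 15787460 to 20179043 per NEAT1siRNA library, and 4 short RNAs (RN7SK, RN7SL1, RN7SL2 and RPPH1) took 64.4% to 68.1% of the TPM in each library. ESR1 was at 0 in all 6 libraries, PGR was near 0, ERBB2 averaged 6.19 and 5.98 TPM in the respective groups, and the mesenchymal markers VIM, FN1, CDH2, ZEB1 and SPARC were all expressed. FN1, fibronectin, fell from 85.2 to 61.1 TPM with NEAT1siRNA (log2 fold change -0.47, adjusted p = 0.00116 by limma). CDH2, N-cadherin, fell from 104 to 82.0 TPM (-0.34, adjusted p = 0.0186 by limma). VIM averaged 1046 and 941 TPM in the respective groups and ZEB1 averaged 15.1 and 14.9 TPM. SPARC averaged 347 and 367 TPM, with all NEAT1siRNA values above the controls. The adjusted p by limma was 0.243, 0.916 and 0.554 for VIM, ZEB1 and SPARC. The part of these markers in the other results was not tested. The epithelial markers CDH1, EPCAM, KRT8 and KRT18 together reached 1.24 to 1.83 TPM with CsiRNA and 1.76 to 2.47 TPM with NEAT1siRNA. Of the 5 leukocyte markers, the sum of 24.6 to 29.4 TPM with CsiRNA and 23.4 to 24.6 TPM with NEAT1siRNA was nearly all CD68, with PTPRC, CD14, CD3E and ITGAM near 0. Endothelial markers summed to at most 0.0714 TPM.

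Across the 10721 genes tested, 14.0% passed an adjusted p of 0.05 in either direction, 8.98% were lower with NEAT1siRNA and 4.99% were higher, and the NEAT1siRNA and CsiRNA values of 30.3% did not overlap. Of the 5 tested members, 3 were past that threshold, with BDKRB1 and PTGER4 lower and PTGES higher, and 4 did not overlap between the groups. Their median log2 fold change was 0.01, beside -0.04 over all genes tested. These counts are not read against the background, because the members were selected on the same contrast. The plot of member levels shows each gene in each library.

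**Figure D1:**
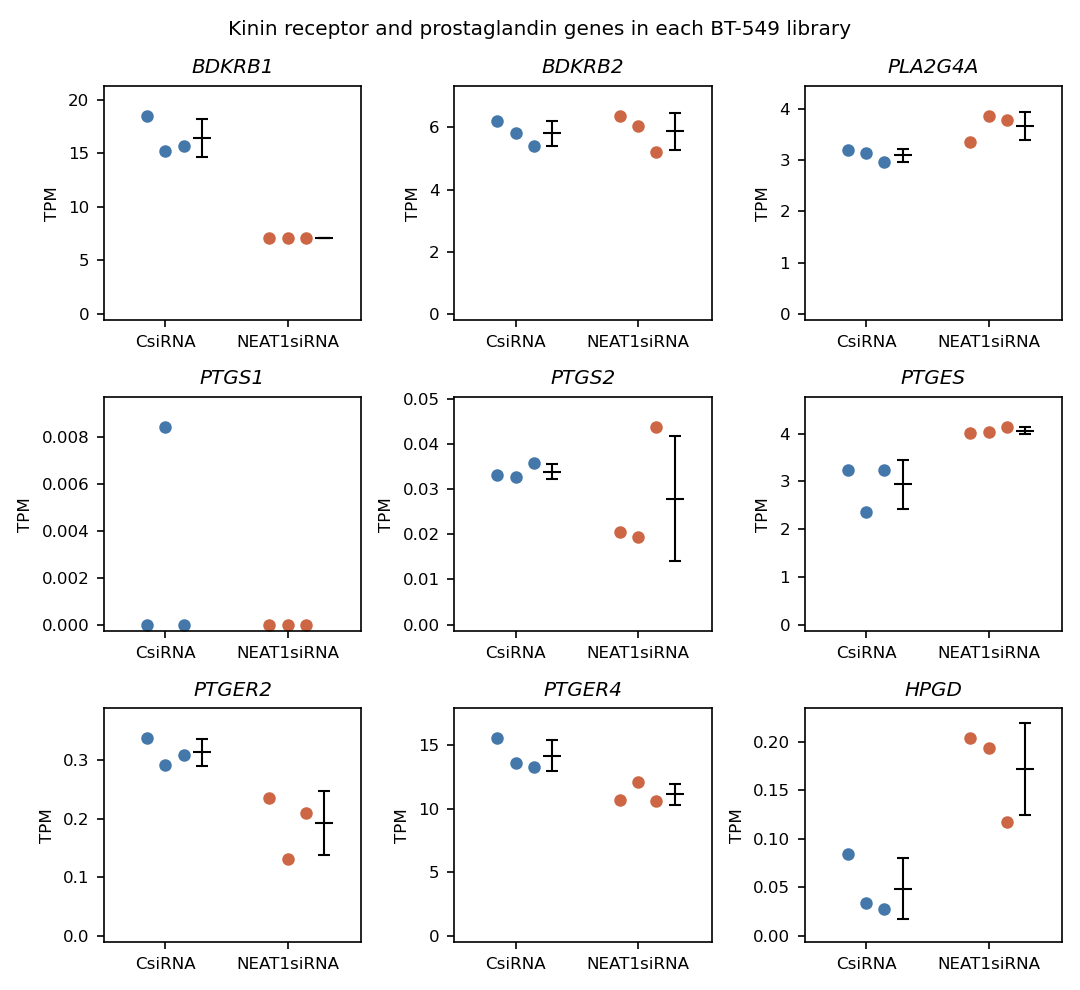
TPM (vertical axes, linear, starting near 0 and differing between panels) of the 9 genes in each library of the CsiRNA group (blue) and the NEAT1siRNA group (orange). Points are libraries in the order of their replicate numbers, and bars give mean ± SD (n = 3) in every panel except that of PTGS1. All 3 NEAT1siRNA values of BDKRB1 and PTGER4 lie below the CsiRNA values and all 3 of PTGES lie above them, whereas BDKRB2 overlaps and PTGS1 and PTGS2 are near 0.

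Among the 5 tested members, the inducible kinin receptor had the greatest difference. BDKRB1, which encodes the B1 receptor, was at 18.5, 15.3 and 15.6 TPM with CsiRNA and at 7.06, 7.05 and 7.04 TPM with NEAT1siRNA. All 3 silenced libraries lay under all 3 controls, and the silenced libraries were nearly equal. The mean went from 16.5 ± 1.78 to 7.05 ± 0.00599 TPM (SD, n = 3 in each group), or 42.8% of the control mean, with a log2 fold change of -1.11 (SE 0.10) on the log2(TPM + 1) scale. About 405, 338 and 422 reads per CsiRNA library and 166, 175 and 155 per NEAT1siRNA library stood behind these levels. The 496 reads summed over the NEAT1siRNA libraries have an exact 95% Poisson interval of 453 to 542, which covers counting error only. An SD of 0.00599 TPM is far smaller than that error, so it is no measure of the precision of the level. BDKRB1 was past the threshold in 18 of 18 settings that could test it, at log2 fold changes from -1.21 to -1.03.

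The constitutive receptor overlapped between the groups. BDKRB2, which encodes the B2 receptor, was at 6.22, 5.82 and 5.39 TPM with CsiRNA and at 6.38, 6.05 and 5.21 TPM with NEAT1siRNA. The silenced libraries spanned the whole range of the controls, and the mean was 5.81 ± 0.411 beside 5.88 ± 0.601 TPM. The log2 fold change was 0.01 (SE 0.10), and it lay between -0.04 and 0.10 over 18 settings, in 0 of which it was past the threshold. Within each library, BDKRB1 was 2.98, 2.62 and 2.90 times BDKRB2 with CsiRNA and 1.11, 1.17 and 1.35 times BDKRB2 with NEAT1siRNA. The mean ratio was 2.83 ± 0.188 in the controls and 1.21 ± 0.128 after silencing, so that the B1 transcript stayed the more abundant of the pair in all 6 libraries by a smaller margin. This ratio, like those that follow, was chosen after the values were seen. GENCODE lists a readthrough gene that shares 376 exon bases with BDKRB1 and 479 with BDKRB2, and an antisense lncRNA that shares 195 with BDKRB1. How the authors' counting treated shared bases is not given in the sources used here.

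The cytosolic phospholipase gave a small difference that was not past the threshold. PLA2G4A (chr1:186828949-186988981, plus strand) was at 3.20, 3.14 and 2.96 TPM with CsiRNA and at 3.36, 3.88 and 3.80 TPM with NEAT1siRNA. The groups did not overlap, although the lowest silenced library lay close to the highest control. The mean went from 3.10 ± 0.122 to 3.68 ± 0.278 TPM, a log2 fold change of 0.19 (SE 0.09). It was past the threshold in 2 of 17 settings, median centring and quantile normalization.

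The cyclooxygenases were barely detected. PTGS1 (chr9:122370530-122395703, plus strand) had 1 recovered read in 1 CsiRNA library and 0 reads in the other 5 libraries, where a count of 0 allows up to 3 reads per library. PTGS2 (chr1:186671791-186680922, minus strand) was at 0.033, 0.033 and 0.036 TPM with CsiRNA and at 0.020, 0.019 and 0.044 TPM with NEAT1siRNA. These values rested on 3, 3 and 4 reads against 2, 2 and 4, and the groups overlapped. The sums of 10 and 8 reads have exact 95% Poisson intervals of 4.80 to 18.4 and 3.45 to 15.8, which cover counting error only. With so few reads, a difference in PTGS2 could not be judged. PTGS2 shares 219 exon bases with the antisense lncRNA PACERR. PTGS2 and PLA2G4A are separated by 148026 bases with 0 protein-coding genes between them, yet the phospholipase was the far more abundant of these neighbours. The 3′ UTR of the longest coding PTGS2 transcript holds 22 ATTTA words, a motif of unstable mRNAs, which is the 96.6th percentile of 9989 tested genes with a median of 3.

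PGE2 synthase was higher after silencing. PTGES (chr9:129738331-129753042, minus strand), the inducible microsomal enzyme, was at 3.25, 2.35 and 3.23 TPM with CsiRNA and at 4.02, 4.03 and 4.14 TPM with NEAT1siRNA. The silenced libraries all lay above the controls, and CsiRNA replicate 2 stood below the other controls. The mean went from 2.94 ± 0.514 to 4.06 ± 0.0697 TPM, or 138% of the control mean, with a log2 fold change of 0.37 (SE 0.10). About 140, 148 and 135 reads per NEAT1siRNA library stood behind the silenced level. Their sum of 423 has an exact 95% Poisson interval of 384 to 465, so the silenced SD is again smaller than counting error. The gene was past the threshold in 14 of 17 settings, and it was not without CsiRNA replicate 2, without NEAT1siRNA replicate 3 or with no filter on TPM. The fold change stayed between 0.26 and 0.50.

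PTGES was also compared with PTGES2, the other membrane-associated PGE2 synthase, within each library. PTGES2 was 3.46, 4.47 and 3.20 times PTGES in the controls and 2.32, 2.02 and 2.08 times PTGES after silencing. The ranges of this ratio did not overlap, and its mean was 3.71 ± 0.668 beside 2.14 ± 0.157. PTGES3, the cytosolic PGE2 synthase, was 41.3, 55.5 and 35.5 times PTGES in the controls and 30.6, 40.1 and 31.1 times PTGES after silencing, and here the groups overlapped. PTGES2 itself averaged 10.7 TPM with CsiRNA and 8.71 TPM with NEAT1siRNA (adjusted p = 0.0535 by limma).

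Of the PGE2 receptors, EP4 was much the more abundant and was lower after silencing. PTGER4 (chr5:40679915-40693735, plus strand) was at 15.6, 13.6 and 13.3 TPM with CsiRNA and at 10.7, 12.1 and 10.6 TPM with NEAT1siRNA. All silenced values lay under the lowest control, with NEAT1siRNA replicate 2 the closest to it. The mean went from 14.2 ± 1.24 to 11.1 ± 0.852 TPM, or 78.5% of the control mean, with a log2 fold change of -0.32 (SE 0.10). PTGER4 was past the threshold in 14 of 18 settings, and it was not without CsiRNA replicate 1, without NEAT1siRNA replicate 1, without NEAT1siRNA replicate 3 or with no filter on TPM. Its fold changes ranged from -0.38 to -0.24. The gene TTC33 overlaps PTGER4 on the other strand without sharing exon bases, and was at 5.51 and 5.88 TPM in the respective groups.

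The EP2 receptor and the inactivating enzyme were under the minimum of 1 TPM and were not tested. PTGER2 (chr14:52314305-52328598, plus strand) was at 0.339, 0.293 and 0.309 TPM with CsiRNA and at 0.236, 0.130 and 0.210 TPM with NEAT1siRNA. The values did not overlap, and the 48 and 29 reads summed over each group have exact 95% Poisson intervals of 35.4 to 63.6 and 19.4 to 41.6. HPGD (chr4:174490175-174523154, minus strand), 15-hydroxyprostaglandin dehydrogenase, was at 0.0846, 0.0334 and 0.0274 TPM with CsiRNA and at 0.204, 0.194 and 0.118 TPM with NEAT1siRNA. Each silenced library was above each control. The level rested on 5, 2 and 2 reads against 13, 13 and 7, and the group sums of 9 and 33 reads have intervals of 4.12 to 17.1 and 22.7 to 46.3. These intervals again cover counting error only and are no test of a difference between the groups. Both groups remained near the limit of detection. Within each library PTGER4 was 46.1, 46.7 and 43.1 times PTGER2 with CsiRNA and 45.3, 93.0 and 50.5 times PTGER2 with NEAT1siRNA, with overlapping groups and few PTGER2 reads behind each ratio.

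By level per transcript length, the order in the controls was BDKRB1 (16.5 ± 1.78 TPM), PTGER4 (14.2 ± 1.24), BDKRB2 (5.81 ± 0.411), PLA2G4A (3.10 ± 0.122), PTGES (2.94 ± 0.514), PTGER2 (0.313 ± 0.0234), HPGD (0.0485 ± 0.0314), PTGS2 (0.0338 ± 0.00168) and PTGS1 (0.00282 ± 0.00489). The ranges of BDKRB1 and PTGER4 overlapped, as did those of PLA2G4A and PTGES, and of HPGD and PTGS2. After silencing the order became PTGER4 (11.1 ± 0.852), BDKRB1 (7.05 ± 0.00599), BDKRB2 (5.88 ± 0.601), PTGES (4.06 ± 0.0697), PLA2G4A (3.68 ± 0.278), PTGER2 (0.192 ± 0.0551), HPGD (0.172 ± 0.0473), PTGS2 (0.0279 ± 0.0138) and PTGS1 at 0. PTGER4 and BDKRB1 exchanged places at the top, PTGES and PLA2G4A exchanged places lower down, and the ranges of PTGER2 and HPGD overlapped. PTGES was already above PLA2G4A in CsiRNA replicate 1 (3.25 beside 3.20 TPM) and CsiRNA replicate 3 (3.23 beside 2.96 TPM).

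The rest of the pathway was described through 7 lists of 93 genes, of which 47 were tested, 3 were higher and 2 were lower with NEAT1siRNA. That is 10.6% of the tested list genes, beside 14.0% of all genes, and the lists together had a median log2 fold change of 0.06. The order of these shares depended on the processing: the list share was the higher in 7 of 19 fits, among them 38.3% beside 31.2% with a trend on GC content and length removed, 29.8% beside 23.3% with voom on recovered reads and 23.4% beside 19.7% with median centring. By direction, 4.99% of all genes tested were higher and 8.98% were lower, and their median log2 fold change was -0.04. Whether the lists differ from other genes in either direction was not tested. The plot of fold changes by list shows all tested genes, and the adjusted p-values that follow are from limma over all genes tested.

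**Figure D2:**
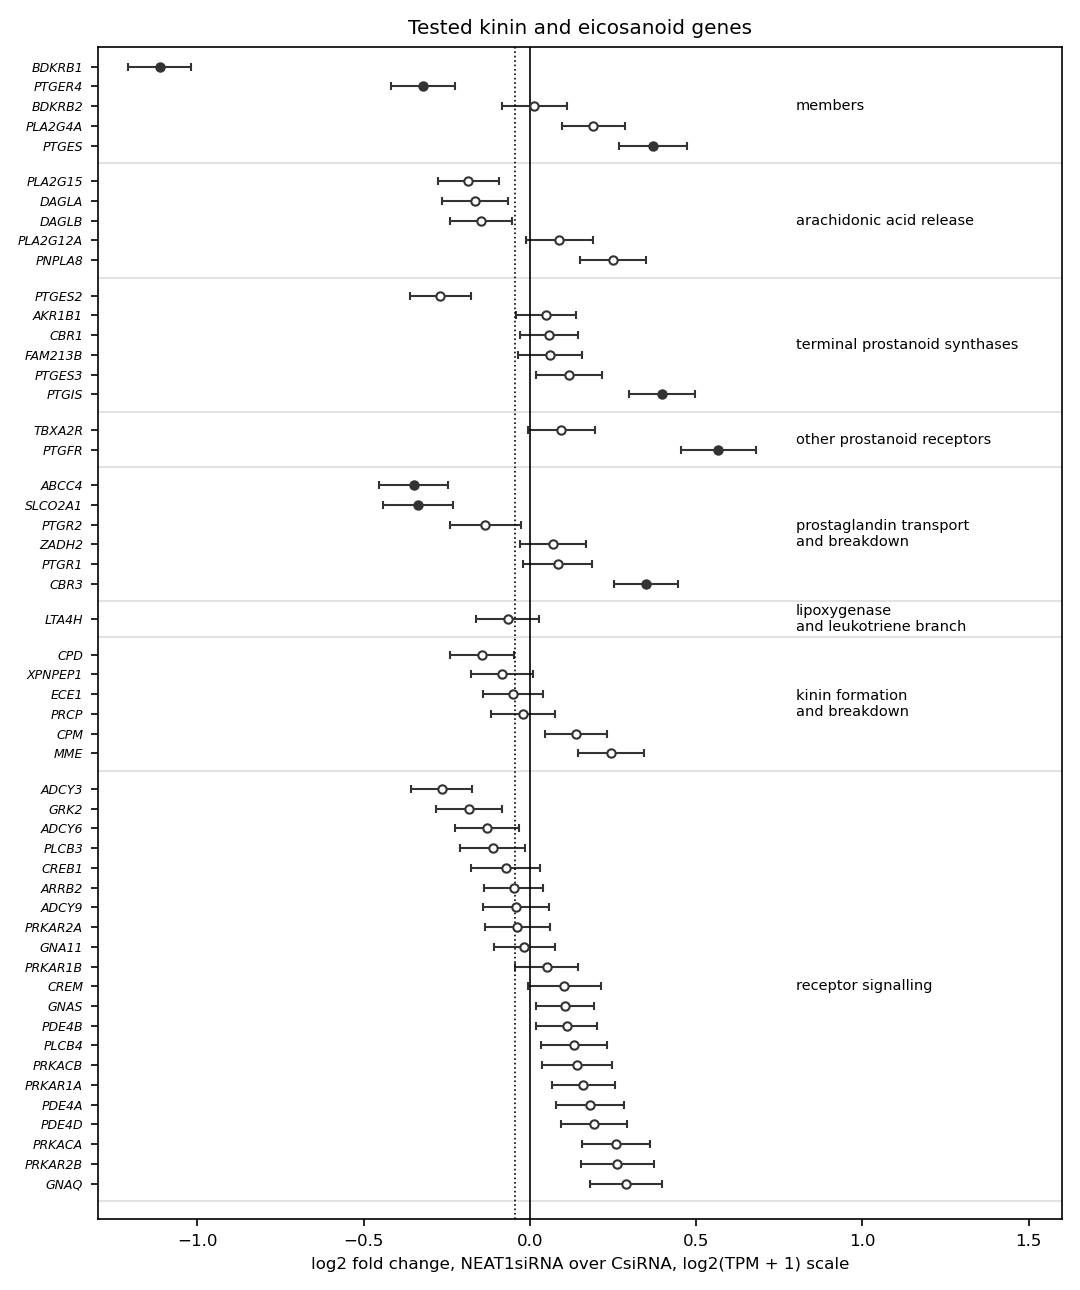
Log2 fold change (horizontal axis, NEAT1siRNA over CsiRNA on the log2(TPM + 1) scale) of each tested member and list gene, grouped by list. Bars are the SE, filled points passed an adjusted p of 0.05, and the dotted line is the median of all genes tested (-0.04). BDKRB1, at -1.11, is farther from 0 than any other gene shown, and PTGFR, at 0.57, is the highest.

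Among other enzymes of arachidonic acid release, 0 of 5 tested genes were past the threshold, the median log2 fold change was -0.15, and 5 of the 16 genes were at 0 in every library. DAGLB, a diacylglycerol lipase, averaged 18.1 TPM with CsiRNA and 16.2 TPM with NEAT1siRNA (adjusted p = 0.324). PNPLA8, a calcium-independent phospholipase, averaged 5.81 and 7.13 TPM (adjusted p = 0.10). The list had 1 call with the GC and length trend removed, median centring, quantile normalization or voom.

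Among the terminal synthases, 1 of 6 tested genes was higher and 0 were lower, with a median of 0.06. PTGIS, prostacyclin synthase, was at 3.86, 3.25 and 3.39 TPM with CsiRNA and at 5.46, 4.95 and 4.38 TPM with NEAT1siRNA. The groups did not overlap, and the log2 fold change was 0.40 (SE 0.10, adjusted p = 0.00797). PTGES3, which is also an HSP90 cochaperone, was the most abundant gene of the list at 126 and 138 TPM (adjusted p = 0.485). CBR1, a carbonyl reductase that can convert PGE2 to PGF2α, averaged 47.9 and 49.8 TPM (adjusted p = 0.725).

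Among the other prostanoid receptors, 1 of 2 tested genes was higher and the median was 0.33. PTGFR, the receptor for PGF2α, was at 12.1, 11.7 and 10.5 TPM with CsiRNA and at 15.4, 22.1 and 15.5 TPM with NEAT1siRNA. All silenced libraries were above the controls, and the log2 fold change was 0.57 (SE 0.11, adjusted p = 0.00116). Within the same library, PTGFR was 0.773, 0.860 and 0.792 times PTGER4 in the controls and 1.44, 1.82 and 1.46 times PTGER4 after silencing. The PTGFR transcript was thus the less abundant of the pair in every control and the more abundant in every silenced library (mean ratio 0.808 ± 0.0458 beside 1.57 ± 0.217). TBXA2R, the thromboxane receptor, averaged 3.78 and 4.09 TPM (adjusted p = 0.592). PTGDR and PTGIR, the receptors for PGD2 and prostacyclin, were at 0 in all 6 libraries.

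**Figure D3:**
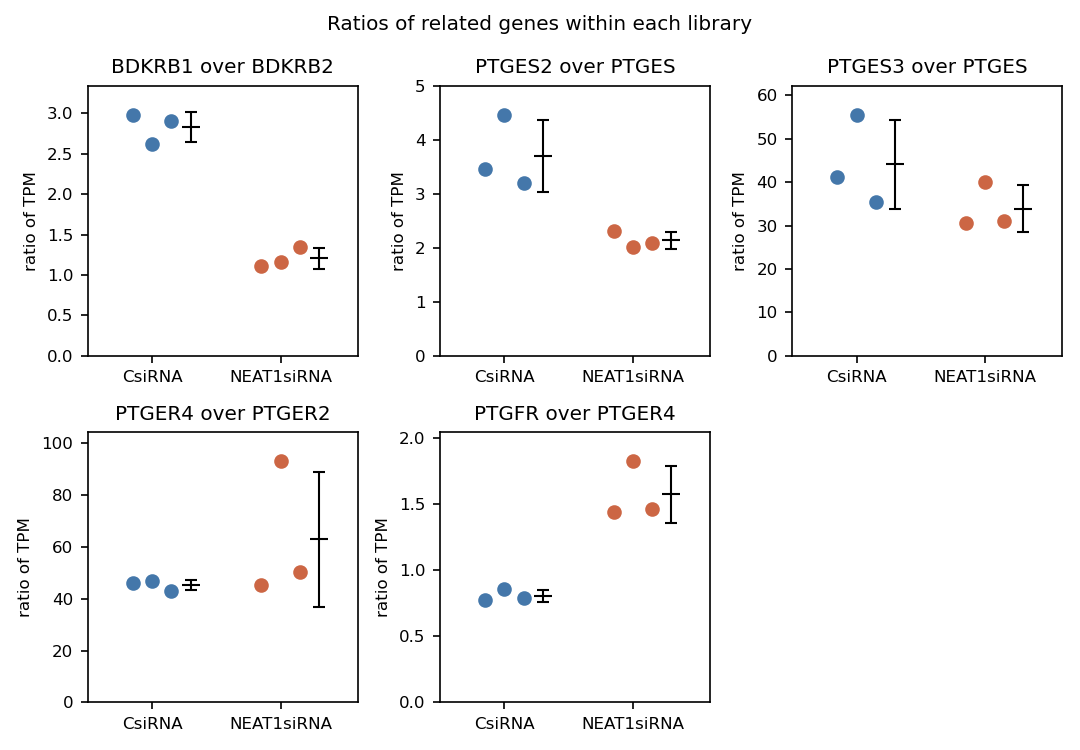
Ratio of the TPM of related genes within each library (vertical axes, linear, from 0), for 5 pairs. Points are libraries (CsiRNA blue, NEAT1siRNA orange), and bars give mean ± SD (n = 3). The groups do not overlap for BDKRB1 over BDKRB2, PTGES2 over PTGES or PTGFR over PTGER4, which passes from under 1 to above 1, and they overlap for PTGES3 over PTGES and PTGER4 over PTGER2.

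Prostaglandin transport and breakdown had calls in both directions, with 1 of 6 tested genes higher, 2 lower and a median of -0.03. ABCC4, an efflux pump for PGE2 and other anions, was at 26.3, 23.7 and 21.1 TPM with CsiRNA and at 17.3, 21.3 and 16.7 TPM with NEAT1siRNA. The groups overlapped by NEAT1siRNA replicate 2 and CsiRNA replicate 3, and the log2 fold change was -0.35 (SE 0.10, adjusted p = 0.0251). Without CsiRNA replicate 1, NEAT1siRNA replicate 1 or NEAT1siRNA replicate 3 the adjusted p of ABCC4 was 0.170, 0.0543 and 0.148. SLCO2A1, the prostaglandin uptake carrier, was at 1.63, 1.14 and 1.49 TPM with CsiRNA and at 1.07, 0.943 and 0.725 TPM with NEAT1siRNA. Its groups did not overlap, the log2 fold change was -0.34 (SE 0.11, adjusted p = 0.0345), and the call was lost in 7 of 17 settings. CBR3, a carbonyl reductase, was at 11.7, 10.0 and 10.4 TPM with CsiRNA and at 13.3, 13.3 and 15.2 TPM with NEAT1siRNA, with a log2 fold change of 0.35 (SE 0.10, adjusted p = 0.0154). The CBR3 call was lost without CsiRNA replicate 2 (0.0850) and without NEAT1siRNA replicate 3 (0.109). With no filter on TPM, the adjusted p by limma was 0.173 for ABCC4, 0.0894 for CBR3, 0.0967 for PTGIS and 0.0996 for PTGFR, so that those calls were lost too. PTGR1 and PTGR2, reductases that act after HPGD, averaged 10.3 and 5.91 TPM with CsiRNA and 11.0 and 5.29 TPM with NEAT1siRNA (adjusted p = 0.655 and 0.450).

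The lipoxygenase and leukotriene branch was almost silent, with 1 of 13 genes tested and 5 at 0 in every library. LTA4H, leukotriene A4 hydrolase, averaged 8.87 and 8.42 TPM (adjusted p = 0.702).

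Kinin formation and breakdown had 0 of 6 tested genes past the threshold and a median of -0.04. KNG1, the kininogen precursor, and KLKB1, plasma kallikrein, were at 0 in all 6 libraries. Kinin-cleaving peptidases were present: ECE1 averaged 21.5 and 20.7 TPM (adjusted p = 0.770) and CPD, a carboxypeptidase, averaged 14.2 and 12.7 TPM (adjusted p = 0.362). CPM, a membrane carboxypeptidase that removes the C-terminal arginine of kinins and was named after its values were seen, averaged 5.47 and 6.12 TPM (adjusted p = 0.362). The list had 2 calls with the GC and length trend removed, with median centring and with voom, and 1 with quantile normalization.

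Downstream signalling was covered by 25 genes of G proteins, phospholipase C, adenylyl cyclases, protein kinase A, phosphodiesterases, CREB factors and arrestins. Of the 21 tested, 0 were past the threshold, with a median of 0.10, but 9 were with the GC and length trend removed, 5 with voom, and 4 with median centring or quantile normalization. GNAS, the stimulatory G protein subunit used by EP2 and EP4, averaged 95.6 and 103 TPM (adjusted p = 0.478). PRKAR1A, a regulatory subunit of protein kinase A, averaged 39.0 and 43.9 TPM (adjusted p = 0.290).

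The nearest tested genes on the genome were also examined. Of 11 distinct nearest or overlapping tested genes, 2 were past the threshold, beside 14.0% of all genes tested, and both were lower. BDKRB1, counted as the neighbour of BDKRB2, is itself a member, so this count is not read against that share. The other was ODR4, 408 kb from PLA2G4A (log2 fold change -0.34, adjusted p = 0.0268 by limma). Some nearest tested genes were far away, such as RGS2 at 5820 kb from PLA2G4A. ATG2B, an autophagy gene 10.2 kb from BDKRB1, averaged 3.46 and 2.78 TPM (log2 fold change -0.24, adjusted p = 0.116 by limma). On the other side of BDKRB1 lies BDKRB2, with the overlapping values given above.

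Some tested genes followed the members closely over the 6 libraries, which share the contrast and depth, so that the correlations are a description across 2 groups and carry no p. BDKRB1 was most like TRAF1 (Pearson r = 0.998), a TNF receptor adaptor, and STEAP3 (0.997), a ferrireductase, and 37 genes had r above 0.99. PTGER4 was most like SLITRK2 (0.9997), PAQR5 (0.998) and ZPR1 (0.997). PTGES was most like FOXL2 (0.996), DNASE1L1 (0.996) and EEPD1 (0.988), BDKRB2 was most like STAC (0.990), CNTRL (0.989) and FARP1 (0.987), and PLA2G4A was most like IRX5 (0.990), TEX9 (0.989) and NT5DC1 (0.984).

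**Figure D4:**
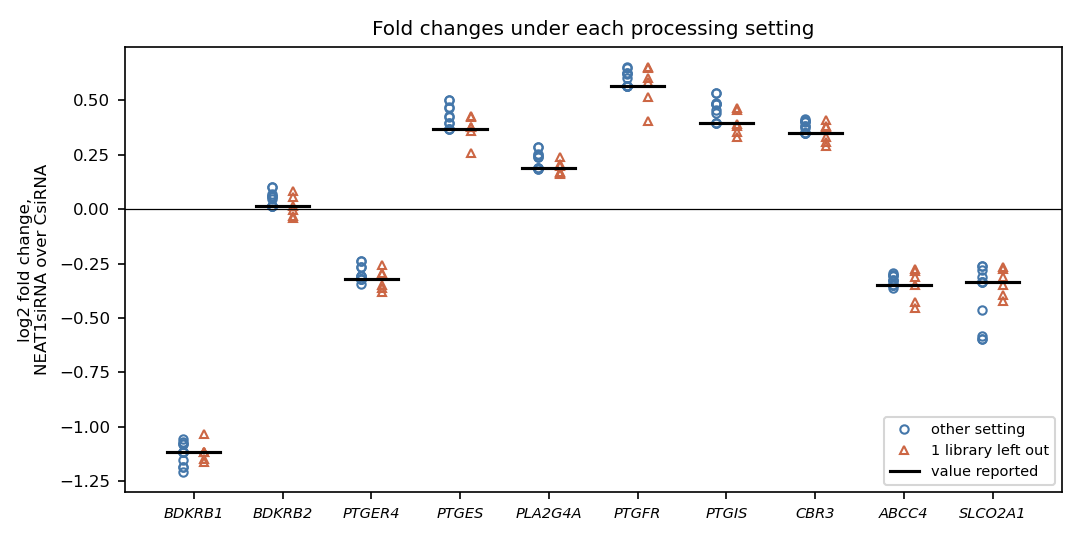
Log2 fold change (vertical axis, NEAT1siRNA over CsiRNA) of the tested members and of the called list genes under each processing setting. Circles are other settings, triangles are fits with 1 library left out, and the horizontal line is the value reported. BDKRB1 stays between -1.21 and -1.03, BDKRB2 straddles 0, and the other genes keep their direction.

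The plot of fold changes by setting shows that direction held for every tested member except BDKRB2, whereas the calls of PTGES and PTGER4 depended on single libraries as given above. Libraries also differed within their group in a trend on GC content. Deviations from the group mean had Spearman correlations with GC content across 10440 genes from -0.71 in NEAT1siRNA replicate 2 to 0.66 in NEAT1siRNA replicate 1. Taken within groups, these correlations cannot show a GC trend between the groups. The part of such a trend in the differences between groups was not tested. With the GC and length trend removed, BDKRB1, PTGER4 and PTGES stayed past the threshold. Under that setting 31.2% of all genes tested were past it, beside 14.0% in the main comparison. The members were chosen on the same contrast, so these calls are a description only.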

How the data were processed

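BT-549 RNA-seq libraries (3 CsiRNA, 3 NEAT1siRNA) were grouped by their labels. Libraries were stranded mRNA libraries. The authors aligned reads to GRCh38 with STAR and deposited TPM per gene and library for 25545 genes. The authors' comparison table, made with DESeq2, gives a mean normalized count over the 6 libraries (a signal), from which reads per library were recovered. Its fold change and p-value columns were not used. Recovered values came within 0.05 of a whole read for 99.8% of genes with a mean normalized count under 5, 98.6% between 5 and 50, 69.5% between 50 and 500 and 12.2% above, so larger read numbers are approximate. How TPM were computed is not given in the sources used here.

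TPM were transformed to log2(TPM + 1). Genes averaging 1 TPM or more (10721) were compared with limma 3.58.1 (lmFit, eBayes with trend, two-sided) in R 4.3.3, with Benjamini-Hochberg adjustment and a threshold of 0.05. The pseudocount of 1 understates changes of low genes. The procedure was run on simulated data with the same spread beyond counting error for every gene and no GC trend. The real libraries had such a trend within groups, so the simulation does not show how the procedure performs on them. Python 3.11.15 was used for the remaining steps, with matplotlib 3.10.9 for plots, pandas 2.3.3 and numpy 2.4.6 for tables and scipy 1.17.1 for intervals.

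The members and lists were chosen with earlier results of these data known. Named were the members, NEAT1, called list genes, up to 2 uncalled genes per list with the highest mean TPM, the nearest tested neighbours and the 3 genes most like each tested member, of which 1 is not reported here. PTGES2, CPM, PACERR, the short RNAs and the marker genes are named beyond this, the first 2 after their values were seen. PTGDR, PTGIR, KNG1 and KLKB1 are also named beyond it, as list genes at 0 in all 6 libraries. Positions come from GENCODE 44 and promoters from RefSeq (9 of 9 members matched, 11 windows). For 97.4% of tested genes the GENCODE transcripts gave a length and a GC content. The alternatives were other pseudocounts, filters, scalings, tools, a replicate block, removal of a GC and length trend, and each library left out. No protein comparison was made here.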

Additional observations from a re-analysis of the deposited data

How the results depend on the processing

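The precision is limited by 3 libraries per group and, for PTGS1, PTGS2, PTGER2 and HPGD, by counts of 48 reads or fewer per group. NEAT1 and BDKRB1 kept their direction and side of the threshold in all 18 settings tried. No called gene changed direction, whereas BDKRB2, which was not called, changed sign without CsiRNA replicate 3 (-0.03), without NEAT1siRNA replicate 1 (-0.04) and without NEAT1siRNA replicate 2 (-0.01). Among all genes, 1498 were past the threshold (963 lower and 535 higher), against 3340 with the GC and length trend removed, 3259 with that trend removed and a replicate block (added after seeing the data), 505 with no filter on TPM, 2500 with voom on recovered reads, 2412 with voom and no filter (also added) and 719 at a threshold of 0.01. The balance of directions turned under median centring, with 954 lower and 1158 higher, and was near even under quantile normalization, with 1109 lower and 1082 higher. It was also near even without CsiRNA replicate 1 (383 lower, 376 higher) and without NEAT1siRNA replicate 3 (425 lower, 413 higher). The same held with the GC and length trend removed (1707 lower, 1633 higher), with no filter on TPM (263 and 242) and with voom without a filter (1219 and 1193). Without NEAT1siRNA replicate 2 the excess of lower genes was larger (1590 lower, 493 higher). Leaving out 1 library gave 759 (without CsiRNA replicate 1; 838 without NEAT1siRNA replicate 3) to 2083. Same-numbered libraries did not deviate together (r = -0.03, 0.25 and -0.11), so the numbers were not taken as pairs. The replicate block gave 1640 genes, 6 list genes in place of 5 and 2 synthases in place of 1, and a library did not always correlate best with its own number.

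The 5 list genes became 18 with the GC and length trend removed, 16 with the block added, 11 with median centring, with quantile normalization and with voom without a filter, 14 with voom, 0 with no filter, 2 at 0.01 and 2 to 8 with 1 library left out (8 without NEAT1siRNA replicate 1, 3 without CsiRNA replicate 1, 2 without NEAT1siRNA replicate 3). Arachidonic acid release had 1 call under the GC setting with or without the block, median centring, quantile normalization, rescaling without 4 short RNAs and voom with or without a filter. Synthases had 2 under the GC setting with or without the block and under voom, 0 with a mean TPM of at least 5 or no filter, and 1 to 2 with 1 library left out. Other prostanoid receptors had 0 with no filter. Transport and breakdown had 0 with no filter or at 0.01, and 0 to 3 with 1 library left out. Kinin formation and breakdown had 2 under the GC setting with or without the block, median centring and voom, 1 under quantile normalization, rescaling and voom without a filter, and 0 to 1 with 1 library left out. Receptor signalling had 9 under the GC setting, 8 with the block added, 5 with voom, 4 with median centring, quantile normalization and voom without a filter, 1 with a mean TPM of at least 5 or rescaling, and 0 to 2 with 1 library left out. On the log2 scale of voom without a filter, PTGS1 was at -0.47, PTGS2 at -0.30, PTGER2 at -0.70 and HPGD at 1.84, and PLA2G4A was at 0.28 with voom with or without a filter. The cause of the changes between settings was not tested.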
